A study of Mus musculus with 6 samples.

Results

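The carbonic anhydrases of mice with and without Cftr were examined through the 10 genes Car1, Car2, Car3, Car4, Car5a, Car6, Car7, Car8, Car11 and Car14, taken as every probe set whose annotated symbol was exactly one of these names. Of the 10 genes, 8 had a probe set, with 9 probe sets in all of the 12488 in the table, and Car4 alone had 2. No probe set was annotated with the symbol Car7 or Car11, so that these were not analysed here.

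Carbonic anhydrases are zinc enzymes that interconvert carbon dioxide and water with bicarbonate and a proton. In the intestine they supply bicarbonate for secretion and protons and bicarbonate for the exchangers that absorb sodium and chloride, and the bicarbonate leaves the cell partly through CFTR. The forms differ in place: some are cytosolic, some face outwards from the cell membrane, others are mitochondrial or secreted, and a few have lost the catalytic activity.

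The groups were 3 Cftr null (-/-) mice and 3 Cftr control (+/+) mice, all 40 days old, congenic on the black6 background and given the liquid diet Peptamen from day 10. Total RNA of the entire small intestine of 1 mouse was hybridized to each 1-colour array. Null replicates 1 and 3 and control replicates 1 and 2 were male, and null replicate 2 and control replicate 3 were female. Levels are probe set intensities in arbitrary units, with a 2%-trimmed mean of 500.3 on every array, and with 3 mice a group the precision of each value is limited. The labels do not say which part of Cftr was altered or how the mice were bred.

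The altered gene was read first. The brightest Cftr probe set gave 325.9, 295.6 and 368.5 in null replicates 1 to 3 and 801.6, 1017.5 and 1002.0 in control replicates 1 to 3, so that every null mouse lay below every control mouse. The enterocyte marker villin, Vil1, the actin-bundling protein of microvilli, was bright in all 6 mice, at 8486 ± 1524 in nulls and 10352 ± 1433 in controls (SD, n = 3 each). Of the 8 enterocyte markers tested, which are described further below, Vil1 had the smallest difference between the groups. RNA of the whole organ mixes many cell types, and fewer cells of a type and less RNA per cell cannot be told apart in it.

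Among the carbonic anhydrases, the transcript of Car4 rose 3.23-fold in Cftr null mice by its brighter probe set, whereas none of the other members tested passed. Of the 9 probe sets, 5 were bright enough to be tested: those of Car2, Car8 and Car14 and both of Car4. Of these 5, 1 was higher in nulls and 0 were lower at an adjusted p under 0.05 (limma, Benjamini-Hochberg adjustment over 7601 probe sets). Over all 7601 probe sets tested, 3.0% passed, 1.13% being higher and 1.87% lower in nulls. The groups did not overlap in 3 of the 5, both Car4 probe sets and that of Car2, against 23.8% of all probe sets tested, and the same 3 had an unadjusted p under 0.05, against 17.3% of all. The other 4 probe sets, those of Car1, Car3, Car5a and Car6, stayed at or below the filter level of 109.7 in every mouse, and no fold over all mice is given for them. With so few members, these shares describe the family and say nothing particular to it.

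**Figure D1:**
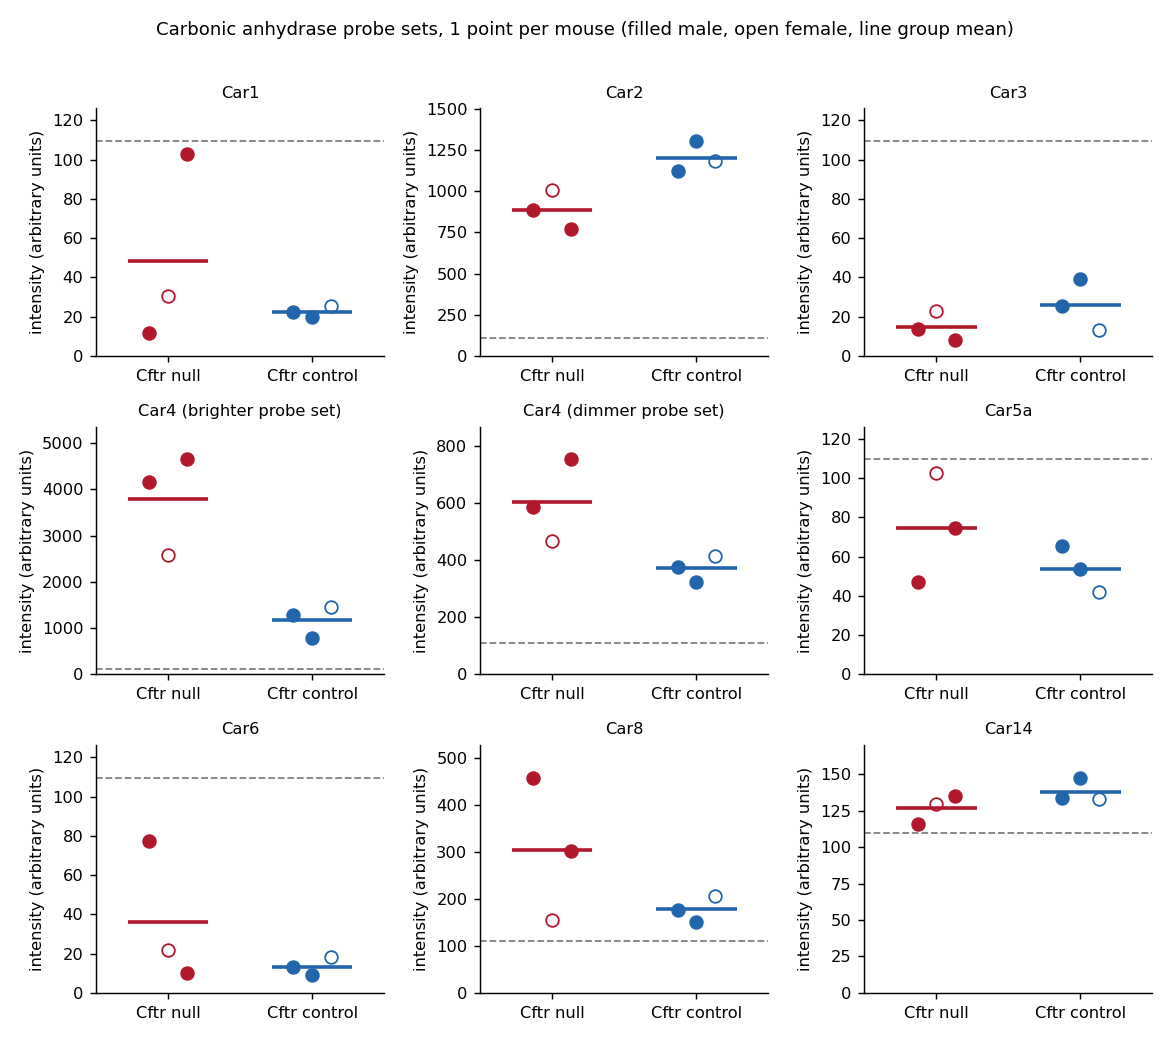
Intensity of the 9 carbonic anhydrase probe sets in arbitrary units, 1 point per mouse, for 3 Cftr null mice (left, red) and 3 Cftr control mice (right, blue). Filled points are males, open points females, solid lines group means and the dashed line the filter level of 109.7; the groups are apart for both Car4 probe sets and for Car2, and overlap in the other panels.

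The start of the Car4 gene is shown because Car4 is the member that changed, and that of Car14 because it is the other tested member with an entry in the RefSeq promoter table (build GRCm38.p6). Each sequence holds the 250 bases before the annotated start, 5′ to 3′ on the gene's strand, with CG dinucleotides, the sites of DNA methylation, in capitals. The Car4 sequence is chr11:84957504-84957753 on the plus strand and the Car14 sequence chr3:95904686-95904935 on the minus strand.
Car4: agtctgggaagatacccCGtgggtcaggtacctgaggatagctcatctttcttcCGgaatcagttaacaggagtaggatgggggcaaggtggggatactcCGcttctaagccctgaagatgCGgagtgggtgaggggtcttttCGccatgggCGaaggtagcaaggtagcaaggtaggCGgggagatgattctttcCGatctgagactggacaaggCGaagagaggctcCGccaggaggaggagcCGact
Car14: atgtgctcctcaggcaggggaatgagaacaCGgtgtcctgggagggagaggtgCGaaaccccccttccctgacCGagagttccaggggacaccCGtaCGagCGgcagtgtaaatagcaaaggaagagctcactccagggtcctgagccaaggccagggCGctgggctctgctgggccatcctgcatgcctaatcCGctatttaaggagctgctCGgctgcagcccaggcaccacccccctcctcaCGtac

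The Car4 sequence holds 11 CG dinucleotides and 56.4% G or C, and the Car14 sequence 10 and 62.0%, where the median over 32851 promoter windows of this length was 6 and 52.4%. Both sequences lay between the 10th and 90th percentiles of all windows, which were 1 and 25 CG dinucleotides and 38.8% and 69.2% G or C. Both strands were searched for 6 motifs: the TATA box as TATAAA, the GC box as GGGCGG, the CCAAT box by those letters, the motif of caudal-type homeobox factors as CATAAA, that of GATA zinc finger factors as AGATAA, and that of the hepatocyte nuclear factor HNF4 as CAAAGTCCA. TATAAA and CATAAA share their last letters but cannot match the same bases of 1 strand. Neither the Car4 nor the Car14 sequence held any of the 6. Of all windows, 12.4% held TATAAA, 32.7% held GGGCGG, 33.8% held CCAAT, 10.8% held CATAAA, 9.99% held AGATAA and 0.384% held CAAAGTCCA. A missing match says only that these letters are not in this window. The table also held Car5a, with 1 match, to CCAAT, and Car6, with 2, to CCAAT and to the GC box. Of the members without a probe set, Car7 had 5 matches over its 3 windows, 4 to the GC box and 1 to AGATAA, and Car11 had 0 over its 2 windows.

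Car4 encodes a carbonic anhydrase held on the outer face of the cell membrane by a lipid anchor, where it works beside bicarbonate transporters. Its brighter probe set gave 4168, 2582.4 and 4653.1 in null replicates 1 to 3, against 1280.5, 779.7 and 1455.9 in control replicates 1 to 3. All null mice lay above all control mice; among the nulls the female was lowest, and among the controls the female was highest. The means were 3801 ± 1083 in nulls and 1172 ± 351 in controls (SD, n = 3 each), a difference of 1.69 on the log2(intensity + 12) scale used for every log2 difference and fold here (SE 0.29, 95% interval 1.03 to 2.35 before adjustment, limma adjusted p = 0.0228). By p this probe set ranked 128 of 7601, and by the size of its fitted rise 43.

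The second Car4 probe set was dimmer and has a name with a suffix that can mark probes shared with other sequences. It gave 588.4, 466.9 and 755.5 in null replicates 1 to 3, against 377.3, 322.9 and 415.9 in control replicates 1 to 3. Here too every null mouse was above every control mouse, and the mice of each group stood in the same order as by the brighter probe set. The log2 difference was 0.66 (SE 0.19, 95% interval 0.22 to 1.11), which did not pass (limma adjusted p = 0.128). Within each mouse, the brighter probe set exceeded the dimmer one by 2.61 ± 0.18 on the log2 scale in nulls and by 1.58 ± 0.30 in controls (SD, n = 3 each). The sizes of change given by the 2 probe sets thus differed by 1.03 on the log2 scale (exact permutation test, two-sided p = 0.10, the smallest that 3 against 3 allows).

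The call for Car4 depended on single mice. It did not pass without null replicate 1 (log2 difference 1.60, limma adjusted p = 0.101), without null replicate 3 (1.52, adjusted p = 0.0825) or without control replicate 1 (1.78, adjusted p = 0.0702), in fits that have fewer samples. In males alone the log2 difference was 2.13 (2 against 2, limma adjusted p = 0.0174), and between the 2 females it was 0.82. A test of whether the difference varies with sex, chosen after the values were seen and resting on 1 female per group, gave 1.30 for males minus females (SE 0.44, unadjusted p = 0.0245, limma adjusted p = 1.0).

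**Figure D2:**
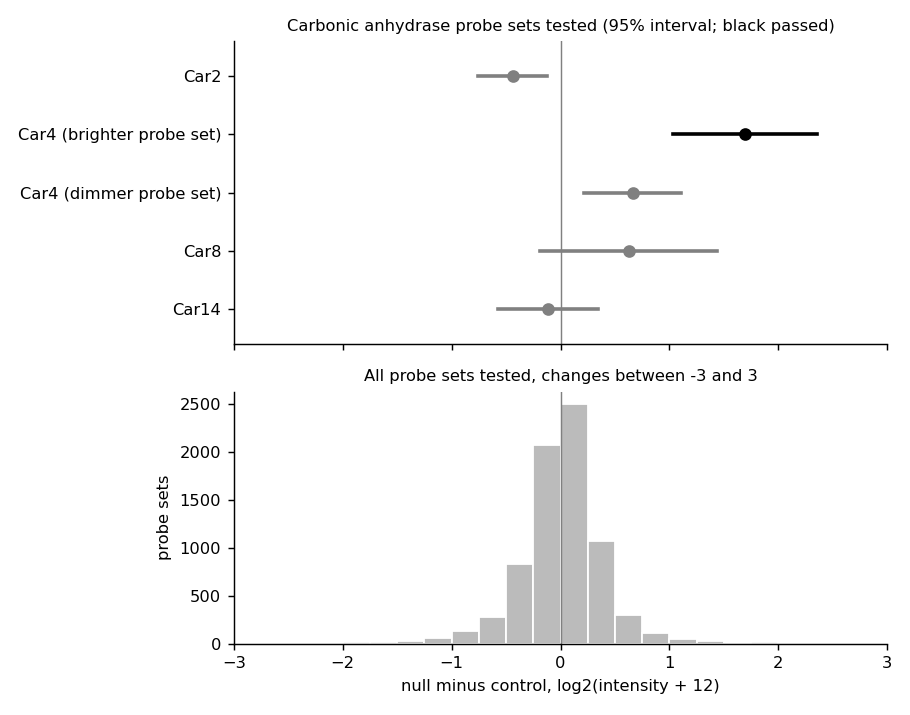
Upper panel, null minus control on the log2(intensity + 12) scale for the 5 carbonic anhydrase probe sets tested, with 95% intervals before adjustment. Lower panel, number of probe sets per 0.25 of the same scale among all tested; the brighter Car4 probe set, at 1.69, lies in the right tail, and the intervals of Car8 and Car14 include 0.

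The cytosolic enzymes were Car1, Car2 and Car3, whose genes lie together with Car13 on chromosome 3. Car2, the fast and widespread cytosolic form that feeds bicarbonate secretion and acid-base exchange in many epithelia, gave 884.8, 1008.2 and 771.3 in null replicates 1 to 3, against 1122.8, 1307.7 and 1183.0 in control replicates 1 to 3. Every null mouse was below every control mouse, with the female highest among the nulls. The means were 888.1 ± 118.5 in nulls and 1204.5 ± 94.3 in controls (SD, n = 3 each). The log2 difference of -0.44 (SE 0.14, 95% interval -0.75 to -0.13 before adjustment) did not pass over all probe sets (limma adjusted p = 0.149). It lay between -0.55 and -0.34 in all 16 alternatives, with adjusted p from 0.114 to 0.318.

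Car1, the form of red blood cells and of the epithelium of the large intestine, was at 11.5, 30.6 and 102.8 in null replicates 1 to 3 and at 22.6, 19.6 and 25.3 in control replicates 1 to 3. Null replicate 3 was the highest and null replicate 1 the lowest of the 6 mice, so that the groups overlapped. Car3, a slow form abundant in adipocytes and skeletal muscle, was at 13.6, 22.9 and 8.2 in null replicates 1 to 3 and at 25.2, 39.3 and 13.1 in control replicates 1 to 3. Its groups overlapped as well: both null males were below both control males, and the null female was above the control female.

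Cells that carry these forms were looked for by their markers. Of 10 red blood cell markers 5 had a probe set, and their summed intensity was between 2322 and 3452 in nulls and between 2198 and 4241 in controls. By the brightest tested probe set of each gene, 0 of 3 tested passed the threshold by limma and 0 had an unadjusted p under 0.05. A dimmer tested probe set of Ank1 was at 499.7 ± 67.8 in nulls and 327.3 ± 32.5 in controls (SD, n = 3 each). Its log2 difference of 0.59 did not pass (limma adjusted p = 0.0855, unadjusted p = 0.00413), and that of the brighter Ank1 probe set was -0.19. The haemoglobin gene Hba-a1 was at 1996 ± 524 in nulls and 2122 ± 1012 in controls (SD, n = 3 each). Of 8 adipocyte markers 6 had a probe set and 4 were tested: Lipe, the hormone-sensitive lipase, fell by 0.82 on the log2 scale (293.0 ± 16.1 in nulls, 531.2 ± 82.3 in controls, limma adjusted p = 0.0312), and 0 passed as higher. The log2 difference was above 0 in 2 of the 4 and below 0 in the other 2. Of the 4 tested, 2 had an unadjusted p under 0.05 (limma), against 17.3% of all probe sets tested. The summed intensity of the 6 was between 1648 and 1814 in nulls and between 1755 and 1971 in controls, and the defining adipocyte marker Adipoq stayed below the filter level in all mice. The largest part of this sum was Lep, whose other probe set stayed below the filter level. Of 7 skeletal muscle markers 4 were tested and 0 passed (limma, 1 at an unadjusted p under 0.05), with a summed intensity between 1919 and 2527 in nulls and between 1748 and 2365 in controls. Most of this sum was Pvalb, whose other probe set stayed below the filter level. These 2 sums thus follow mainly 1 probe set each, and most of the red blood cell sum was Hba-a1. No marker of these lists was listed at 0.

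The other forms that face outwards or leave the cell were Car14 and Car6. Car14, a membrane-spanning enzyme with its active site outside the cell, was at 116.0, 129.7 and 134.8 in null replicates 1 to 3, against 133.5, 147.7 and 133.0 in control replicates 1 to 3. These values lay just above the filter level and the groups overlapped. The log2 difference of -0.11 (SE 0.20, 95% interval -0.57 to 0.35) did not pass (limma adjusted p = 0.818), and the interval leaves room for a moderate change in either direction. Car6, the enzyme secreted in saliva, was at 77.2, 21.8 and 10.1 in null replicates 1 to 3 and at 13.1, 9.0 and 18.1 in control replicates 1 to 3. Null replicate 1 stood apart from the other 5 mice, at a level below the filter.

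Car5a, a mitochondrial form best known from liver, where it supplies bicarbonate for the urea cycle and gluconeogenesis, was at 47.0, 102.5 and 74.5 in null replicates 1 to 3 and at 65.6, 53.9 and 42.0 in control replicates 1 to 3. The groups overlapped. When no filter was applied, none of the 4 dim members passed, with limma adjusted p between 0.616 for Car6 and 0.751 for Car1 and 0 at an unadjusted p under 0.05. Markers of organs next to the small intestine did not pass either: 0 of 5 tested of the pancreatic acinar cell, 0 of 1 of the stomach and 0 of 1 of the liver (limma, 0 at an unadjusted p under 0.05).

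Car8 has lost catalytic activity and is known as a binding partner of the inositol trisphosphate receptor in cerebellar neurons. It was at 458.8, 155.1 and 301.9 in null replicates 1 to 3, against 176.1, 151.7 and 206.1 in control replicates 1 to 3. The 2 null males were the highest of the 6 mice, and the null female lay among the controls. The means were 305.3 ± 151.9 in nulls and 178.0 ± 27.2 in controls (SD, n = 3 each), and the log2 difference of 0.63 (SE 0.35, 95% interval -0.19 to 1.44) did not pass (limma adjusted p = 0.413). It was 0.28 without null replicate 1 and 1.03 without null replicate 2, and passed in neither (limma adjusted p = 0.739 and 0.0865). Of 11 neuron and glia markers 3 were tested and 0 passed (limma, 0 at an unadjusted p under 0.05). The summed intensity over 9 of these genes was between 2517 and 3476 in nulls and between 2781 and 3114 in controls. Most of this sum was Tubb3. Of the 6 further carbonic anhydrases looked for by symbol, Car5b, Car9, Car10, Car12, Car13 and Car15, 1 had a probe set: Car12, another membrane-spanning form, at 149.3 ± 3.29 in nulls and 136.8 ± 36.3 in controls (SD, n = 3 each), which did not pass.

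The cells that can carry Car4 were examined in the same way. Car4 is known from the apical membrane of epithelial cells, from the colon and from capillary endothelium. All 8 enterocyte markers with a probe set, of 10 listed, had a log2 difference below 0 (median -0.69). The largest was that of Lct (-3.12), which did not pass (limma adjusted p = 0.0606). Of the 8, 1 passed: the alkaline phosphatase Akp3, at 1513 ± 219 in nulls and 5905 ± 1415 in controls (SD, n = 3 each, limma adjusted p = 0.00398). In 5 of the 8 the unadjusted p was under 0.05 (limma), against 17.3% of all probe sets tested. The groups did not overlap in 4, against 23.8% of all. The summed intensity of the 8 enterocyte markers was between 40666 and 75625 in nulls and between 91977 and 108101 in controls. The differences of this list and that of Car4 thus had opposite signs. Of 7 endothelial markers 6 were tested and 0 passed (limma, 0 at an unadjusted p under 0.05), with a summed intensity between 1798 and 2225 in nulls and between 1893 and 2212 in controls. The largest part of this sum was Eng.

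Of 9 markers of large intestine epithelium 4 had a probe set and 2 were tested, with 0 past the threshold (limma, 0 at an unadjusted p under 0.05). The water channel Aqp8 was at 95.5 ± 32.6 in nulls and 179.2 ± 128.2 in controls (SD, n = 3 each), and the homeobox genes Hoxd10 and Hoxd12 were below the filter level in every mouse. The summed intensity of the 4 was between 208.4 and 296.4 in nulls and between 186.1 and 420.6 in controls. All 6 smooth muscle markers had a log2 difference above 0, and 1 passed, the gamma-2 actin Actg2 (7351 ± 1275 in nulls, 2904 ± 709 in controls, SD, n = 3 each, limma adjusted p = 0.0151). The name of the Actg2 probe set has the same suffix as the dimmer Car4 one, which can mark probes shared with other sequences. In 3 of the 6 the unadjusted p was under 0.05 (limma), against 17.3% of all probe sets tested. The groups did not overlap in 4, against 23.8% of all. The summed intensity of the 6 smooth muscle markers was between 15859 and 20303 in nulls and between 8833 and 13272 in controls. The part of smooth muscle and of enterocyte content in the Car4 result was not tested. No marker of these 4 lists was listed at 0.

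Among the genes that move bicarbonate and protons beside these enzymes or regulate that transport, 2 passed as lower in nulls, the altered gene Cftr among them, and none passed as higher. Of 38 such genes listed, 23 had a probe set and 17 were tested: 15 did not pass, and 4 had an unadjusted p under 0.05 (limma). Over all probe sets tested, 3.0% passed and 17.3% had an unadjusted p under 0.05 (limma). The 2 were Cftr itself (log2 difference -1.47, limma adjusted p = 0.00421) and Guca2b, uroguanylin, the gut peptide that opens CFTR through cyclic GMP (3991 ± 415 in nulls, 9518 ± 937 in controls, SD, n = 3 each, limma adjusted p = 0.00421). Cftr, as the gene altered in these mice, is no evidence about the rest of the list, and it is in both the 2 and the 4. Guca2b was the only other gene of the list to pass. The log2 difference was above 0 in 7 and below 0 in 10 of the 17 genes, and their median was -0.07, against 0.03 over all probe sets tested. That of the 5 carbonic anhydrase probe sets, 0.63, is the value of Car8 itself, which did not pass, and 2 of these 5 belong to Car4.

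Members of this list that did not pass included Slc9a3r1, the scaffold protein that holds CFTR and the sodium-proton exchanger in the brush border, at 9221 ± 1197 in nulls and 13105 ± 2063 in controls (limma adjusted p = 0.141). Gucy2c, at 1648.8 ± 82 in nulls and 2308.5 ± 278 in controls, did not pass either (SD, n = 3 each, limma adjusted p = 0.099). The anion exchanger Slc4a2, which brings chloride into the cell for bicarbonate, averaged 843.1 ± 141.8 in nulls and 743.4 ± 100.1 in controls. The sodium-bicarbonate cotransporter Slc4a4, which loads epithelial cells with bicarbonate, averaged 326.5 ± 42.3 in nulls and 341.4 ± 18.6 in controls (SD, n = 3 each). Of 16 genes of the vacuolar proton pump 13 were tested and 0 passed, nor did any have an unadjusted p under 0.05 (limma). The log2 difference was above 0 in 12 of the 13 and below 0 in Atp6v0b, with a median of 0.10, against 0.03 over all probe sets tested. The groups did not overlap in 6 of the 13, against 23.8% of all probe sets tested. Of these 6, Atp6v0b was lower and the others higher in nulls. The summed intensity of the 13 was between 17020 and 18646 in nulls and between 16722 and 16907 in controls, so that the sums did not overlap. Its brightest members were Atp6v0b, at 2584 ± 171 in nulls and 2833 ± 66.2 in controls, and Atp6v1b2, at 2242 ± 125 in nulls and 1948 ± 149 in controls (SD, n = 3 each).

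**Figure D3:**
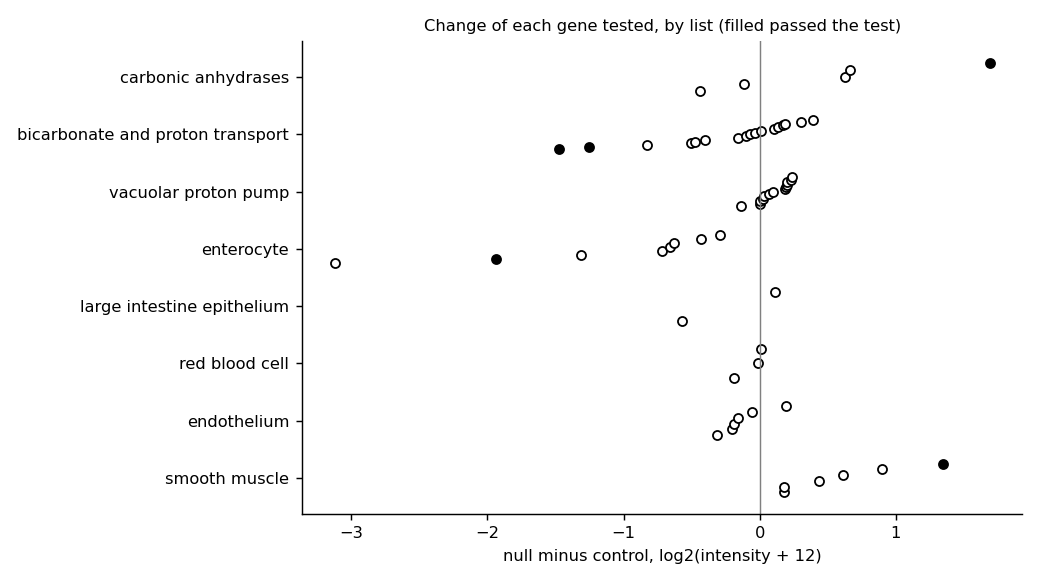
Null minus control on the log2(intensity + 12) scale for the 5 carbonic anhydrase probe sets and for each gene tested of 7 lists, 1 point per gene by its brightest tested probe set. Filled points passed at an adjusted p under 0.05; Car4 is the filled point on the right of the top row, Cftr and Guca2b those on the left of the row under it.

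The genes whose levels followed those of Car4 most closely over the 6 mice were found by the root mean square difference of log2 profiles, each centred on its own mean, over 5716 other genes. They were Sqle, Myl7, Psat1, Gsr and Mfsd4a, with differences between 0.19 and 0.27. Sqle, squalene epoxidase of cholesterol synthesis, was at 1838.1, 1583.7 and 3105.6 in null replicates 1 to 3, against 642.2, 435.6 and 745.8 in control replicates 1 to 3. Myl7, a myosin light chain of the heart atrium, was at 383.1, 293.0 and 452.7 in null replicates 1 to 3, against 129.4, 47.1 and 140.3 in control replicates 1 to 3. In both genes, as in Car4, null replicate 3 was highest, null replicate 2 lowest among the nulls, and control replicate 2 lowest of all.

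Psat1, an enzyme of serine synthesis, averaged 486.1 ± 250.4 in nulls and 153.9 ± 49.3 in controls, which did not pass (limma adjusted p = 0.0942). Gsr, glutathione reductase, was at 4248 ± 886 in nulls and 1679 ± 270 in controls (limma adjusted p = 0.0145). Mfsd4a, a membrane carrier of the major facilitator family, was at 1022 ± 73.4 in nulls and 403.5 ± 128.1 in controls (SD, n = 3 each, limma adjusted p = 0.0199). Since Car4 separated the groups, genes close to it separate them too, and their differences are no evidence apart from the choice.

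**Figure D4:**
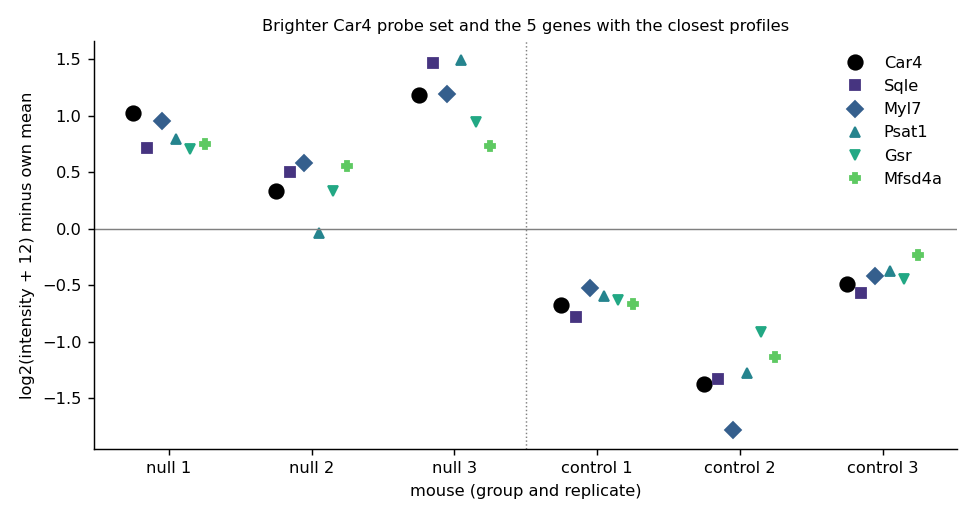
Level of the brighter Car4 probe set and of the 5 genes with the closest profiles in each mouse, as log2(intensity + 12) minus the gene's own mean over the 6 mice. Car4 is above its mean in the 3 null mice and below it in the 3 control mice, with null replicate 2 and control replicate 2 lowest in their groups.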

How the data were processed

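Deposited values were probe set intensities on a linear scale, 1 mouse per 1-colour array, and equal trimmed means show that they had been scaled before deposit. No source used here names the software behind them; RNA was made with TRIzol per the labels. Of the 12488 probe sets, 66 array controls were set aside, 10833 had 1 gene symbol in the platform annotation, 396 several and 1193 none.

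The deposited intensities were turned into log2(value + 12), 12 being their 10th percentile, so that changes of dim genes come out too small. Tests covered each probe set above 109.7, the 40th percentile, on at least 3 of 6 arrays, which left 7601. Null and control were compared over all of these with limma (version 3.58.1, R 4.3.3; lmFit, then eBayes with a trend), as two-sided tests adjusted after Benjamini and Hochberg, with a threshold of 0.05, without pairing or batch, since the labels give none. The functions were tested on simulated data. Lists used each gene's brightest tested probe set, and summed intensities its brightest probe set. Named were all member probe sets, Cftr, list members past the threshold or else the 2 brightest, and the 5 closest profiles. Other genes, such as Vil1, Lct, Lep, Hba-a1, Aqp8, Gucy2c, Slc9a3r1, Slc4a2, Slc4a4 and the markers below the filter, were picked with their values in view. The members and lists were chosen with earlier results of these data known. Alternatives were other scalings, pseudocounts, filters, variance settings, sex as a covariate, males only, and leaving out each mouse, the last 2 with the same 7601 probe sets.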

Additional observations from a re-analysis of the deposited data

Results flagged for a closer look

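Both results below are listed because males and females differed in direction. In each, every null male was on one side of every control male, and the null female on the other side of the control female. The pattern was chosen after the values were seen and its share over all probe sets was not counted, so that it says nothing particular to these genes. For Car8 the null minus control log2 difference was 1.13 in the 4 males and -0.38 between the 2 females. The difference between these, 1.52 for males minus females (SE 0.47), had an unadjusted p of 0.0168 and a limma adjusted p of 1.0; over all 7601 probe sets 0 passed this test, which rests on 1 female per group and was chosen after the values were seen. For Car3, whose intensities were all below the filter level, the log2 difference was -0.94 in males and 0.48 between females, and the difference between the sexes was not tested. At these intensities no change of Car3 can be read.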

How the results depend on the processing

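The log2 difference of each of the 5 member probe sets tested kept its sign in every alternative that could be fitted. Car8 and Car14 fell below the filter at 288.7, the 60th percentile, and have no value there. The brighter Car4 probe set passed in 13 of 16 alternatives, with adjusted p between 0.0162 and 0.101 over all 16. It had a log2 difference between 1.425 and 1.95 when 1 mouse was left out, and without null replicate 1, null replicate 3 or control replicate 1, each a fit with fewer samples, the number of member probe sets higher in nulls was 0 instead of 1. The dimmer Car4 probe set and those of Car2, Car8 and Car14 passed in none of their alternatives. Over all probe sets, leaving out 1 mouse gave between 17 and 68 higher and between 35 and 117 lower, against 86 and 142 with all mice. Males only gave 50 higher and 85 lower, and eBayes without a trend 49 and 92. Among the genes of bicarbonate and proton transport and its regulation, the 2 that fell were Cftr and Guca2b in each of the 16 alternatives. Rescaling moved the median log2 difference of all probe sets between 0.02 and 0.03. Signal over background limits Car1, Car3, Car5a and Car6, for which no change can be read.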
